A study of Mus musculus with 4 samples.

Results

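Ring finger (Rnf) genes encode proteins with a RING domain, a zinc-binding fold that in most of them brings a ubiquitin-loaded enzyme to a substrate. The members described here are the genes of the deposited table whose symbol is Rnf followed by a number and at most 1 letter, which gave 82 of 53379 gene IDs and 81 symbols, because Rnf26 has 2 IDs. The symbols were matched without reference to any measured value. The tissue was the V-SVZ (ventricular-subventricular zone), which lines the lateral ventricles and makes new neurons and glia, taken from wild-type (WT) CD1 mice aged 7 or 8 days after birth (P7/P8). Lysates were immunoprecipitated with anti-Cpeb4 or with control anti-IgG, and the recovered RNA was sequenced. The work was done in 2 experiments, each with 1 Cpeb4 and 1 IgG library, so that n = 2 per antibody. All 4 libraries came from the same genotype, strain, tissue and age, and only the antibody differed. The labels do not say whether the experiments used separate or pooled animals, so each p-value rests on how far these particular samples spread, and that spread may be technical. For each gene that spread was judged mostly from other genes of like level, with 14.6 degrees of freedom from them against 1 from the gene itself. No library of total lysate RNA was used here, so levels are of immunoprecipitated RNA.

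Ubiquitin is activated by an E1 enzyme, passed to an E2 conjugating enzyme and placed on a substrate with the help of an E3 ligase. RING ligases hold the E2 and the substrate together, HECT ligases carry the ubiquitin themselves, and RING-between-RING ligases combine a RING with a catalytic cysteine. Ring finger proteins act in protein quality control at the endoplasmic reticulum, in chromatin modification and DNA repair, and in growth factor signalling, including in developing brain. Cpeb4 belongs to the cytoplasmic polyadenylation element-binding proteins, which bind 3′ untranslated regions and regulate poly(A) tail length and translation.

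Reads on genes numbered 35037171 and 24483742 with Cpeb4 and 24094241 and 22486721 with IgG. Values are FPKM (fragments per kilobase of gene, scaled by the authors with a factor for each library). These factors did not follow the read totals. The Cpeb4 library of experiment 2 had the smallest factor but more reads than either IgG library. None of 45 markers of 9 cell classes was at 0 in every library, and 44 passed the filter on low values. Summed neuroblast markers (Dcx, Sox11, Dlx1, Dlx2, Dlx5, Cd24a and Tubb3) stood at 591 and 606 FPKM in the Cpeb4 libraries against 404 and 408 FPKM in the IgG libraries, and 4 of 7 were called higher. Summed stem cell and astrocyte markers stood at 942 and 987 against 623 and 596 FPKM, with 4 of 7 called higher and 1 lower. All 6 oligodendrocyte lineage markers were called higher, at a sum of 485 and 456 against 323 and 312 FPKM. All 3 blood markers were called lower, at a sum of 159 and 141 against 231 and 209 FPKM, and 2 of 4 ependymal markers were called lower, at 49.0 and 41.5 against 57.5 and 59.0 FPKM. The transit amplifying, microglial, endothelial and mural, and choroid plexus lists had 3 of 4, 1 of 6, 1 of 5 and 0 of 2 tested markers called higher and 1, 2, 1 and 0 called lower. Of the 44 tested markers, 19 were called higher and 10 lower, beside 38.8% and 11.6% of all tested genes. Marker sums and calls are given with the authors' scaling alone. Scaling to total reads moved the median log2 fold change of all tested genes from 0.19 to -0.24. The part of these marker differences in the Ring finger values was not tested. The sums are of immunoprecipitated RNA from bulk tissue, and without lysate libraries they give neither numbers of cells nor RNA per cell.

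With the authors' scaling, more Ring finger transcripts were higher than lower in the Cpeb4 immunoprecipitates. Of 66 members that passed the filter (1 FPKM or more in 2 or more libraries), 39 were called higher, 3 were called lower and 24 were not called. The highest were Rnf141, which has been described in testis, the membrane ligases Rnf128 and Rnf13, Rnf24, which binds TRPC channels, and Rnf2, the Ring1B subunit of Polycomb repressive complex 1. The lower members were Rnf167, Rnf25 and Rnf123. Calls were made by limma at a Benjamini-Hochberg adjusted p under 0.05, with the fit run across 15745 genes. Members called higher made up 59.1% of those tested, beside 38.8% of all tested genes, and members called lower made up 4.55%, beside 11.6% of all tested genes. The median log2 fold change was 0.44 over the tested members and 0.19 over all tested genes. It was 0.40 in experiment 1 and 0.47 in experiment 2 (SD 0.045). These counts depend on how the libraries were scaled. With libraries scaled to their total reads, 17 members were called higher and 19 lower (25.8% and 28.8%), beside 17.5% and 42.4% of all tested genes. With each library left out in turn, the members' median log2 fold change ran from 0.41 to 0.49, and the number of members called also moved.

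**Figure D1:**
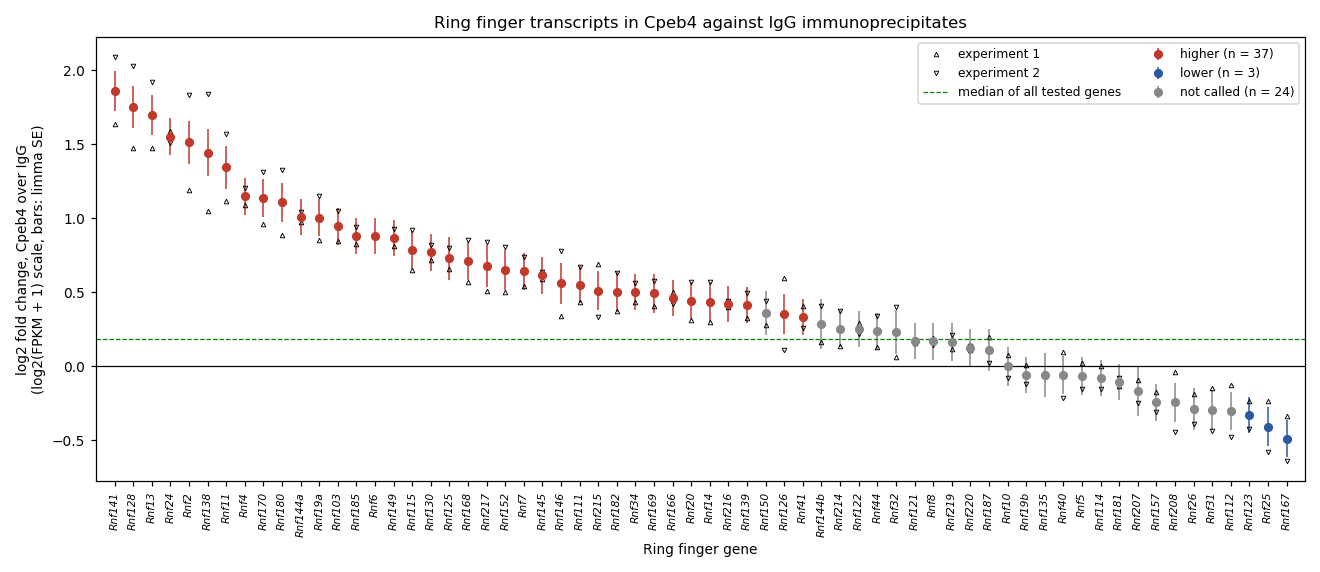
Log2 fold change of Cpeb4 over IgG on the log2(FPKM + 1) scale (vertical axis) for 64 of the 66 tested Ring finger genes (horizontal axis, in falling order). Dots are limma estimates with bars of 1 SE, open triangles are the 2 experiments, and the dashed line is the median of all tested genes; 37 of the genes shown are called higher, 3 lower and 24 not called, from 1.86 for Rnf141 to -0.49 for Rnf167.

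The direction of a member was mostly shared by the experiments, as it was for all genes. Of 66 tested members, 61 (92.4%) had the same sign in both experiments, beside 83.4% of all tested genes. In 48 members (72.7%) both Cpeb4 libraries lay above both IgG libraries, beside 53.2% of all tested genes, and in 11 (16.7%) both lay below, beside 22.7%. A rise of at least 2-fold on the log2(FPKM + 1) scale was seen in 12 members, which is 18.2% of those tested, beside 10.8% of all tested genes (1704 genes). By fold change, 25 members (37.9%) fell in the top 25% of all tested genes and 9 (13.6%) in the bottom 25%. Mean FPKM of the tested members ran from 1.30 to 183, with a median of 16.8, and the lowest read number of a tested member in any library was 60.

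Rnf141 had the largest fold change of the members on the log2(FPKM + 1) scale, while Rnf128 exceeded it with a pseudocount of 0.1 (1.95 against 1.90), with limma-voom (1.97 against 1.91) and with the length and level trend removed (1.49 against 1.21). It lies at chr7:110799469-110844452 (GRCm38, RefSeq), where it overlaps Ampd3, and reads of overlapping genes cannot be told apart by strand in this assay. Its transcript stood at 76.1 and 97.4 FPKM in the Cpeb4 libraries of experiments 1 and 2 against 23.8 and 22.2 FPKM in the IgG libraries. Both Cpeb4 libraries lay well above both IgG libraries, with means of 86.8 ± 15.0 and 23.0 ± 1.19 FPKM (SD, n = 2). The log2 fold change was 1.86 (SE 0.14, adjusted p = 5.98e-08 by limma), a 3.63-fold difference on the log2(FPKM + 1) scale.

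The PA-TM-RING ligases are single-pass membrane proteins that carry a protease-associated domain on the luminal or outer side and the RING in the cytosol. Of 9 members of this family 6 were tested, of which 4 were called higher and 1 lower (66.7% and 16.7%, beside 38.8% and 11.6% of all tested genes), with a median log2 fold change of 0.82. With total reads, 3 were higher and 1 lower, beside 17.5% and 42.4% of all tested genes. Rnf128 (GRAIL), known for its part in T cell anergy, stood at 14.4 and 18.8 FPKM with Cpeb4, against 4.53 and 3.83 FPKM with IgG. The groups did not overlap, and the log2 fold change was 1.75 (SE 0.14, adjusted p = 1.2e-07 by limma). Rnf13, a ligase of the endoplasmic reticulum and endolysosomes at chr3:57736044-57835425 (GRCm38), stood at 53.7 and 69.8 FPKM with Cpeb4 and at 18.7 and 17.7 FPKM with IgG. Every Cpeb4 value of Rnf13 was above every IgG value, with means of 61.7 ± 11.3 and 18.2 ± 0.701 FPKM (SD, n = 2) and a log2 fold change of 1.70 (SE 0.13, adjusted p = 9.52e-08 by limma). Rnf149 and Rnf130 were also called higher, by 0.87 and 0.77 on the log2 scale.

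Rnf167, a ligase of the same family that acts at lysosomes and on AMPA receptors, had the most negative fold change of the members that passed the FPKM filter. It lies at chr11:70647230-70651421 (GRCm38), where it overlaps Slc25a11. Its level was 29.5 and 25.4 FPKM in the Cpeb4 libraries and 37.6 and 40.2 FPKM in the IgG libraries. Both Cpeb4 values were below both IgG values, with means of 27.5 ± 2.94 and 38.9 ± 1.80 FPKM (SD, n = 2). The log2 fold change was -0.49 (SE 0.13, adjusted p = 0.00441 by limma). Rnf150 of this family had 2.88 and 3.31 FPKM with Cpeb4 and 2.21 and 2.18 FPKM with IgG, and was the member just short of the threshold on the higher side (log2 fold change 0.36, SE 0.15, adjusted p = 0.0534 by limma).

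Rnf24 was the highest of the members grouped by the endoplasmic reticulum and other membranes. In this group 14 of 17 IDs were tested, and 10 were called higher (71.4%, beside 38.8% of all tested genes), 0 lower and 4 not called, with a median log2 fold change of 0.56. With total reads, 5 were higher and 3 lower, beside 17.5% and 42.4% of all tested genes. Rnf24 lies at chr2:131298488-131352892 (GRCm38), where it overlaps Pank2. Its transcript stood at 13.4 and 15.1 FPKM in the Cpeb4 libraries against 3.76 and 4.66 FPKM in the IgG libraries. The groups did not overlap, and the fold change was alike in the experiments, at 1.59 and 1.51 on the log2 scale (fit across all libraries 1.55, SE 0.13, adjusted p = 1.12e-07 by limma).

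Rnf170, which marks the activated inositol trisphosphate receptor for degradation, stood at 18.8 and 22.7 FPKM with Cpeb4 and at 9.16 and 8.52 FPKM with IgG. Both Cpeb4 values were higher (log2 fold change 1.14, SE 0.13, adjusted p = 2.58e-06 by limma). Rnf170 overlaps Hook3, and its pseudogene Rnf170-ps, which could share reads with it, stood at 0.0429 to 0.200 FPKM. Rnf180 (Rines), which acts on monoamine oxidase A, stood at 39.6 and 49.3 FPKM against 20.9 and 19.1 FPKM. It too had no overlap between antibodies, with a log2 fold change of 1.11 (SE 0.13, adjusted p = 4.34e-06 by limma). Rnf103 (Kf-1), a ligase of the endoplasmic reticulum, rose by 0.95 and Rnf185, which acts in degradation of proteins from the endoplasmic reticulum, by 0.88. The sterol-linked ligases Rnf145 and Rnf139 rose by 0.61 and 0.41, and Rnf152, a lysosomal ligase of the small GTPase RagA, rose by 0.65 on the same scale.

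Among the members that act on chromatin and in DNA damage, 5 of 7 were called higher (71.4%, beside 38.8% of all tested genes) and 0 lower, with a median log2 fold change of 0.49. With total reads, 2 were higher and 1 lower, beside 17.5% and 42.4% of all tested genes. Rnf2, which monoubiquitylates histone H2A, stood at 31.5 and 41.2 FPKM with Cpeb4, against 13.2 and 10.9 FPKM with IgG. The Cpeb4 values lay above both IgG values (log2 fold change 1.51, SE 0.15, adjusted p = 5.02e-07 by limma). Rnf4, which recognises SUMO-modified proteins, stood at 62.9 and 63.4 FPKM with Cpeb4 and at 29.0 and 26.9 FPKM with IgG. Its Cpeb4 libraries differed by less than its IgG libraries, and the log2 fold change was 1.15 (SE 0.12, adjusted p = 1.42e-06 by limma). Rnf168, which spreads ubiquitin on H2A at double-strand breaks, rose by 0.71, Rnf169, which binds that mark, by 0.49, and Rnf20, a ligase for histone H2B, by 0.44. Rnf8, which acts upstream of Rnf168, and Rnf40, the partner of Rnf20, were not called, at 0.17 and -0.06 on the log2 scale.

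All 4 members of the Rnf114 group, ligases with a RING followed by further zinc fingers and a ubiquitin-interacting motif, were tested. Of these, 3 were called higher and 0 lower (75% and 0%, beside 38.8% and 11.6% of all tested genes). The median log2 fold change of the group was 0.59. With total reads, 2 were higher and 1 lower, beside 17.5% and 42.4% of all tested genes. Rnf138, which acts in DNA end resection, stood at 46.3 and 74.3 FPKM with Cpeb4, against 21.9 and 20.0 FPKM with IgG. The Cpeb4 libraries differed from each other by more than the IgG libraries did, and both lay above them (log2 fold change 1.44, SE 0.16, adjusted p = 1.72e-06 by limma). Its retrocopy Rnf138rt1, which could share reads with it, stood at 1.53 to 1.82 FPKM in the 4 libraries. Rnf125, which acts on the RNA sensor RIG-I, rose by 0.73 from a low level, with 3.59 and 3.63 FPKM against 1.91 and 1.66 FPKM. Rnf166 rose by 0.46, and Rnf114 was not called at -0.08.

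Of 8 RING-between-RING ligases, 5 were called higher (62.5%, beside 38.8% of all tested genes) and 0 lower, with a median log2 fold change of 0.43. With total reads, 2 were higher and 2 lower, beside 17.5% and 42.4% of all tested genes. Rnf144a stood at 37.0 and 40.2 FPKM with Cpeb4, against 18.3 and 19.0 FPKM with IgG. These groups did not overlap, and the log2 fold change was 1.01 (SE 0.12, adjusted p = 4.31e-06 by limma). Rnf19a (dorfin) stood at 23.9 and 27.7 FPKM against 12.7 and 11.9 FPKM, a 2.01-fold rise on the log2(FPKM + 1) scale. Rnf14, which acts on stalled ribosomes in human cells, was among the most abundant members. It stood at 106 and 114 FPKM with Cpeb4 and at 86.2 and 76.2 FPKM with IgG, a smaller rise of 0.43 (SE 0.13, adjusted p = 0.0125 by limma) that did not hold under the other 4 scalings. Rnf31 (HOIP), which builds linear ubiquitin chains, was not called, at -0.29.

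**Figure D2:**
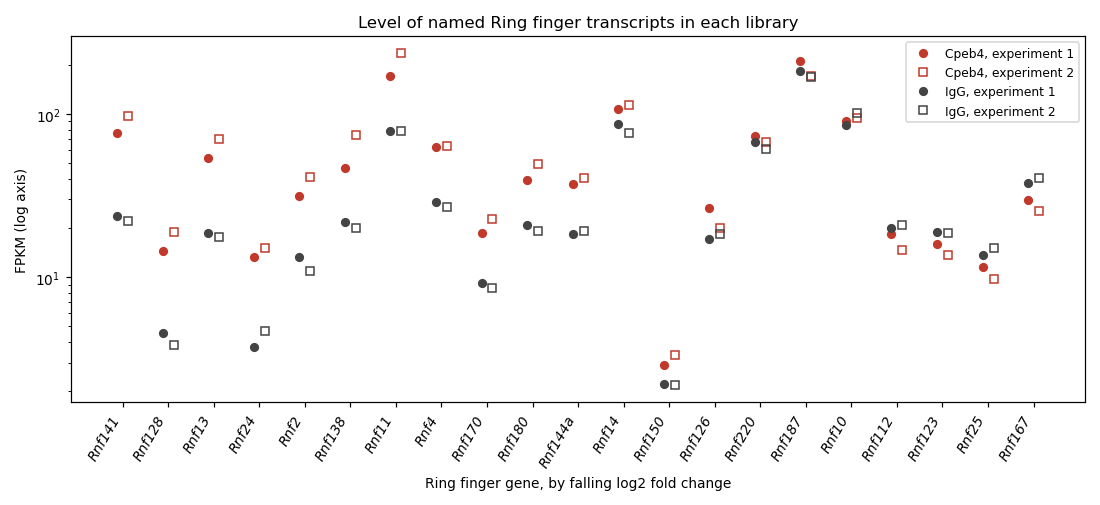
FPKM on a log axis (vertical) of the Ring finger genes whose values are given for every library (horizontal axis, by falling log2 fold change). Filled circles are experiment 1 and open squares experiment 2, in red for Cpeb4 and dark grey for IgG; the Cpeb4 values of Rnf141 (76.1 and 97.4) sit above its IgG values (23.8 and 22.2), and those of Rnf167 (29.5 and 25.4) sit below (37.6 and 40.2).

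Of 6 members that act in signalling by TGF-beta, BMP, Wnt or ErbB receptors or that regulate inflammatory signalling beside them, 5 were called higher (83.3%, beside 38.8% of all tested genes) and 0 lower, with a median log2 fold change of 0.48. With total reads, 1 was higher and 1 lower, beside 17.5% and 42.4% of all tested genes. Rnf11, a subunit of the A20 ubiquitin-editing complex, lies at chr4:109452857-109476505 (GRCm38) and had the highest mean level of the members called higher. Its transcript stood at 171 and 236 FPKM with Cpeb4, against 78.3 and 78.8 FPKM with IgG. Both Cpeb4 values lay above the closely spaced IgG values, with means of 204 ± 45.9 and 78.5 ± 0.306 FPKM (SD, n = 2) and a log2 fold change of 1.34 (SE 0.14, adjusted p = 1.45e-06 by limma). Rnf146, which ubiquitylates poly(ADP-ribosyl)ated axin, rose by 0.56. Rnf111 (Arkadia), which promotes Smad signalling, rose by 0.55 and Rnf41 (Nrdp1), a ligase for ErbB3, by 0.33. These 3 calls held under none of the other 4 scalings. Rnf220, which acts on Gli proteins and beta-catenin, stood at 73.0 and 67.0 FPKM with Cpeb4 and at 67.6 and 60.9 FPKM with IgG. Its groups overlapped and the test made no call (0.12 on the log2 scale, SE 0.13, adjusted p = 0.441 by limma), with values of -0.15 to -0.39 under the other 4 scalings and a lower call under 2 of them.

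Of 21 tested members in none of these groups, 7 were called higher, 2 lower and 12 not called, with a median log2 fold change of 0.16. The shares of 33.3% higher and 9.52% lower are near those of all tested genes, 38.8% and 11.6%. With total reads, 2 were higher and 10 lower, and the median was -0.27. Over all tested genes, 17.5% were then higher and 42.4% lower, with a median of -0.24. Besides Rnf141 the higher members included Rnf6, which acts on LIM kinase 1 in growth cones, at 19.8 and 19.4 FPKM against 10.2 and 10.2 FPKM (log2 fold change 0.88). Rnf7 (Rbx2), the RING subunit of cullin-5 ligases, rose by 0.64. Rnf126, a ligase of BAG6-dependent quality control, was the member just past the threshold, with 26.3 and 19.9 FPKM against 17.1 and 18.3 FPKM (log2 fold change 0.35, SE 0.14, adjusted p = 0.0406 by limma). Its rise was 0.59 in experiment 1 and 0.11 in experiment 2, and without the experiment block it was no longer called.

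Rnf25, which acts on stalled ribosomes in human cells, stood at 11.5 and 9.73 FPKM with Cpeb4, against 13.7 and 15.1 FPKM with IgG. Both Cpeb4 values were lower (log2 fold change -0.41, SE 0.13, adjusted p = 0.0155 by limma). Rnf25 overlaps Stk36. Rnf123 (KPC1), which acts in degradation of the cell cycle inhibitor p27, stood at 15.9 and 13.6 FPKM against 18.9 and 18.6 FPKM. It lay lower in both experiments and just past the threshold (log2 fold change -0.33, SE 0.12, adjusted p = 0.0355 by limma), and it overlaps Gmppb and Amigo3. Rnf112 (neurolastin), a brain GTPase with a RING domain, stood at 18.3 and 14.6 FPKM against 20.1 and 20.7 FPKM and was just short of the threshold (log2 fold change -0.30, SE 0.13, adjusted p = 0.0617 by limma).

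The most abundant members were not those with the largest differences, apart from Rnf11. Rnf187 (RACO-1), a coactivator of c-Jun, stood at 211 and 170.0 FPKM with Cpeb4, against 184 and 168 FPKM with IgG. The groups overlapped, and no call was made (0.11 on the log2 scale, SE 0.14, adjusted p = 0.545 by limma). Rnf10, which ubiquitylates ribosomal proteins of the small subunit in human cells, stood at 90.4 and 94.8 FPKM against 85.6 and 100.4 FPKM. Its Cpeb4 values lay between its IgG values (-0.002 on the log2 scale, SE 0.13, adjusted p = 0.992 by limma). Under the other 4 scalings both genes had negative log2 fold changes, and Rnf10 was called lower under 3 of them and Rnf187 under 2.

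**Figure D3:**
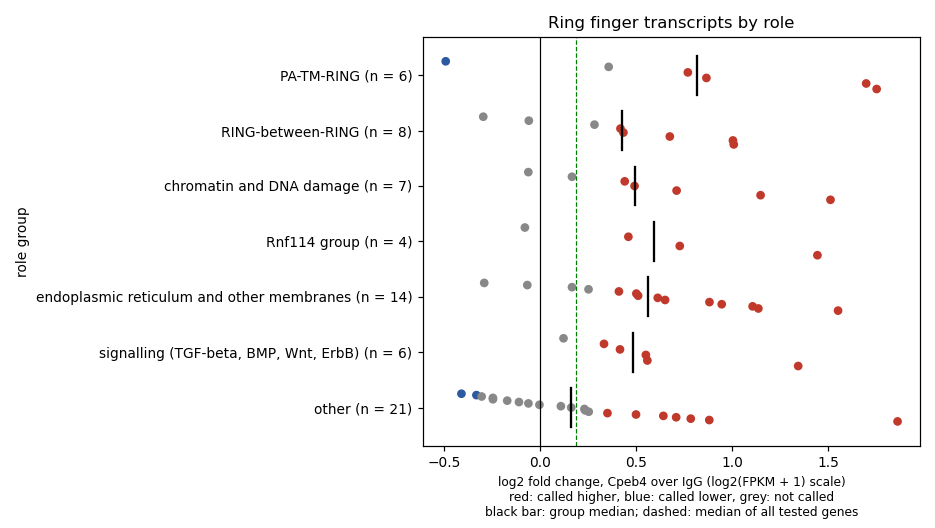
Log2 fold change of Cpeb4 over IgG on the log2(FPKM + 1) scale (horizontal axis) of each tested Ring finger gene, 1 dot per gene, by role group (vertical axis). Red dots are called higher, blue lower and grey not called, black bars are group medians (from 0.16 for the members in no group to 0.82 for PA-TM-RING), and the dashed line is the median of all tested genes, 0.19.

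Each of the 6 role groups had a median above that of all tested genes with the authors' scaling, but the groups overlapped widely. Their medians ran from 0.43 for the RING-between-RING ligases to 0.82 for the PA-TM-RING ligases, and within the PA-TM-RING ligases single values ran from -0.49 to 1.75. Groups held 4 to 14 tested members, and differences between groups were not tested. Members called higher under all 5 scalings numbered 5 in the membrane group, 3 among the PA-TM-RING ligases, 2 each among the RING-between-RING, chromatin and Rnf114 groups, 1 in signalling and 2 in no group. The matching share of all tested genes was not counted. With libraries scaled to total reads the group medians ran from -0.03 for the RING-between-RING ligases to 0.32 for the PA-TM-RING ligases.

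Some related ligases of the same pathway differed in log2 fold change within the libraries. A difference between paralogs uses the same libraries for both genes. Because a scaling multiplies all genes of a library by 1 factor, that factor cancels in such a difference except through the pseudocount of 1. The shift of under 0.1 with total reads, seen in all pairs given here but Rnf144a and Rnf144b, therefore does not test the differences. For 8 pairs of related members, the larger log2 fold change minus the smaller was over 0.3 in both experiments in 4 pairs. The share among pairs of unrelated genes was not counted. Over all tested genes the SD of the log2 fold change was 0.56 in experiment 1 and 0.66 in experiment 2. Gaps of this size are thus not shown to be particular to paralogs. With 2 libraries per antibody, the smallest two-sided p that an exact permutation test allows is 0.333, so the pairs are given as values only.

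The widest gap was between Rnf24 and Rnf122, membrane ligases of alike structure. Rnf122 stood at 15.4 and 14.0 FPKM with Cpeb4 and at 12.4 and 11.9 FPKM with IgG, and was not called (log2 fold change 0.25). The difference between Rnf24 and Rnf122 was 1.30 in experiment 1 and 1.29 in experiment 2. The paralogs Rnf19a and Rnf19b differed by 0.85 and 1.27, as Rnf19b stood at 13.7 and 13.3 FPKM against 13.6 and 14.5 FPKM. Rnf185 and Rnf5, which both act in degradation from the endoplasmic reticulum, differed by 0.80 and 1.10 in the experiments. Rnf5 was the more abundant of these per length, at 68.0 and 56.2 FPKM with Cpeb4 and 66.9 and 62.6 FPKM with IgG, while Rnf185 stood at 23.8 and 24.3 against 13.0 and 12.2 FPKM.

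Rnf144a and Rnf144b differed by 0.81 and 0.64, but Rnf144b stood at 1.11 to 1.91 FPKM, where the pseudocount of 1 shrinks a fold change. With the trend on length and level removed, this difference was 0.20, and with total reads it was 0.53. Rnf20 and Rnf40, which form 1 ligase complex, differed by 0.22 in experiment 1 and 0.79 in experiment 2, and Rnf115 and Rnf126 by 0.054 and 0.81. The remaining pairs were closer, with differences of 0.22 for Rnf168 over Rnf169 and 0.20 for Rnf145 over Rnf139. The member with the larger fold change was the longer in 5 of 8 pairs.

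**Figure D4:**
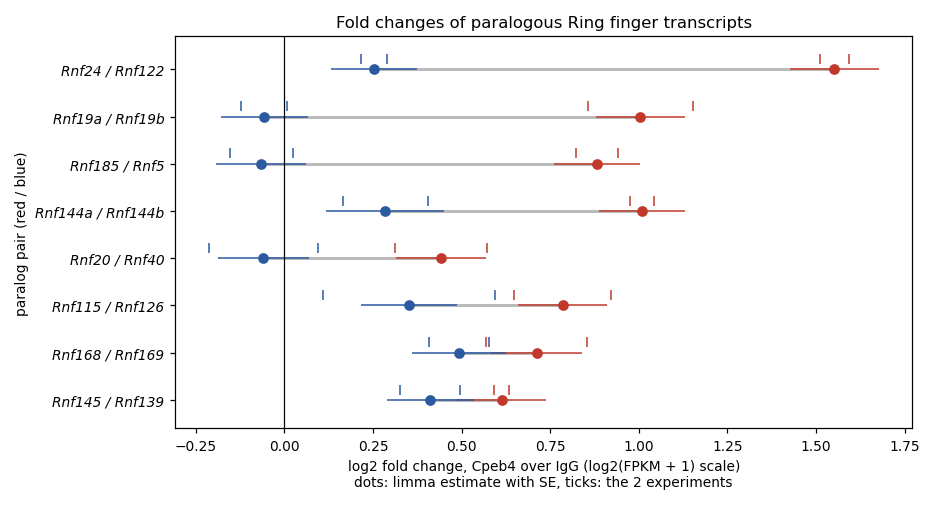
Log2 fold change of Cpeb4 over IgG on the log2(FPKM + 1) scale (horizontal axis) of the members of 8 paralog pairs (vertical axis), with the larger in red and the smaller in blue. Dots are limma estimates with bars of 1 SE and ticks are the 2 experiments; the gap is widest for Rnf24 over Rnf122 (1.30) and narrowest for Rnf145 over Rnf139 (0.20).

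The number of members called depended on the scaling of the libraries, and the direction of the median did so too. With libraries scaled to total reads, 17 members were higher and 19 lower (25.8% and 28.8%), beside 17.5% and 42.4% of all tested genes. With the upper quartile, 19 were higher and 18 lower (28.8% and 27.3%), beside 19.6% and 37.0%. With the trimmed mean of M-values, 25 were higher and 13 lower (37.9% and 19.7%), beside 25.6% and 25.6%. With centring on the median of tested genes, 24 were higher and 14 lower (36.4% and 21.2%), beside 23.6% and 29.9%. The median log2 fold change of the members was -0.02 with total reads, 0.03 with the upper quartile, 0.17 with the trimmed mean and 0.12 with centring, while that of all tested genes was -0.24, -0.18, -0.04 and -0.09. The members' median minus that of all tested genes was 0.25 with the authors' scaling and 0.21 to 0.22 with the other 4.

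The shares of all tested genes in the classes given below, such as called higher under all 5 scalings, were not counted. With total reads alone, 17.5% of all tested genes and 25.8% of tested members were called higher. Of 39 members called higher, 17 were called higher under all 5 scalings, and no member called higher was called lower under another. These 17 were Rnf141, Rnf128, Rnf13, Rnf24, Rnf2, Rnf138, Rnf11, Rnf4, Rnf170, Rnf180, Rnf144a, Rnf19a, Rnf103, Rnf185, Rnf6, Rnf149 and Rnf125, and they were also called higher with each library left out in turn. A further 8 were called higher under 1 to 3 of the other scalings, among them Rnf115, Rnf130, Rnf168, Rnf217, Rnf152, Rnf7 and Rnf145. The remaining 14, among them Rnf146, Rnf111, Rnf215, Rnf182, Rnf34, Rnf169, Rnf166, Rnf20, Rnf14, Rnf216, Rnf139, Rnf126 and Rnf41, were called higher with the authors' scaling alone. The 3 lower members were lower under all 5 scalings, but with no filter on low values 0 members were called lower. Rnf25 and Rnf123 were also not past the threshold in the authors' deposited table. A further 10 members that were not called with the authors' scaling were called lower under each of the other 4, namely Rnf19b, Rnf40, Rnf5, Rnf114, Rnf181, Rnf157, Rnf208, Rnf26, Rnf31 and Rnf112. Lower calls over all tested genes also rose, from 1822 with the authors' scaling to between 4024 and 6670 with the other 4.

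**Figure D5:**
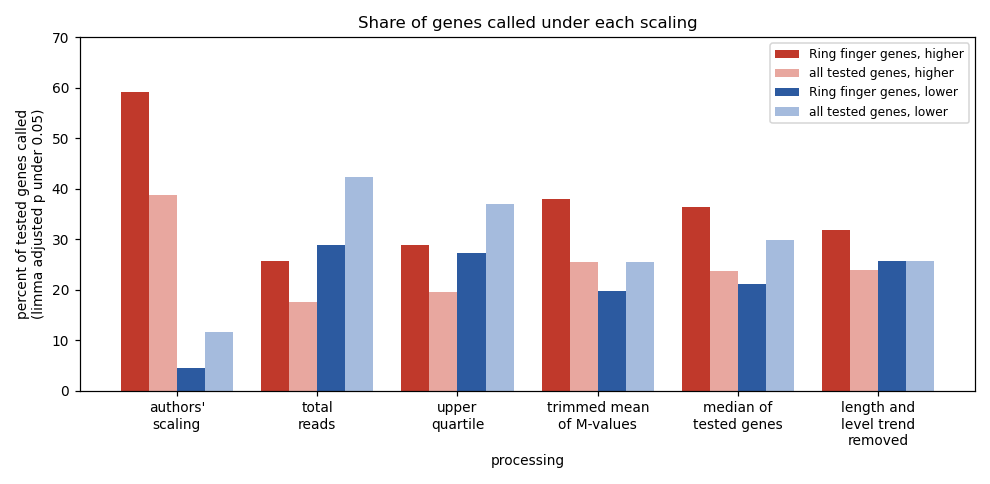
Percent of tested genes called higher (red) or lower (blue) at a limma adjusted p under 0.05 (vertical axis, from 0) under the authors' scaling, 4 other scalings and the removal of the length and level trend (horizontal axis). Dark bars are Ring finger genes and pale bars all tested genes; the share of Ring finger genes called higher runs from 59.1% with the authors' scaling to 25.8% with total reads, beside 38.8% and 17.5% of all tested genes.

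Transcript length and level moved with the fold change across genes. Across all 15633 tested genes with a length implied by their FPKM, Spearman's rho with the log2 fold change was 0.30 for length and 0.33 for mean level. Across the 66 tested members it was 0.19 for length and 0.16 for level; genes share the same libraries, so these values are descriptions. The median implied length was 3590 bases for the tested members and 3079 bases for all tested genes. It was 3961 bases for members called higher (1242 to 11102), 3317 bases for members not called (1248 to 9760) and 2268 bases for members called lower (1519 to 4765). With a trend on length and level removed, 21 members were called higher and 17 lower (31.8% and 25.8%), beside 23.9% and 25.7% of all tested genes. The members' median was then 0.04, beside -0.04 for all tested genes, a gap of 0.08 in place of 0.25. All 17 members that were higher under each scaling were also called higher with the trend removed, and the matching share of all tested genes was not counted.

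Fold changes of the higher members were mostly larger in experiment 2. Among the 39, 32 had the larger value in experiment 2 and 7 in experiment 1, and among all genes called higher 75.7% had the larger value in experiment 2. The SD of the log2 fold change over the members was 0.47 in experiment 1 and 0.67 in experiment 2, beside 0.56 and 0.66 over all tested genes. Rnf138 had log2 fold changes of 1.05 and 1.84, whereas Rnf24, Rnf6 and Rnf144a were within 0.1 between experiments.

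In the authors' deposited table, 73 members had an adjusted p, of which 37 were higher (50.7%) and 2 lower (2.74%), by the same threshold on its adjusted p. In the authors' deposited table, 21.7% of 22709 genes were higher and 4.93% lower. All 37 members higher in the authors' deposited table were also called higher here, and 1 of its 2 lower members, Rnf167, was called lower here. The other lower member of the authors' deposited table was Rnf213 (adjusted p 2.34e-06), which did not pass the filter used here.

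Other enzymes of the ubiquitin pathway gave further values beside the members. Of 71 other RING genes 69 were tested. Of these, 46 were called higher and 3 lower (66.7% and 4.35%, beside 38.8% and 11.6% of all tested genes). The median log2 fold change of these RING genes was 0.62. The highest of them was Bmi1, a partner of Rnf2 in Polycomb repressive complex 1, at 1.70, followed by Trim59 at 1.65 and Znrf2 at 1.54. Of 29 E1 and E2 enzymes, which supply ubiquitin to RING ligases, 21 were called higher (72.4%, beside 38.8%) and 0 lower. The median of these enzymes was 0.83. Ube2d3 and Ube2d2a, E2 enzymes that work with many RING ligases, rose by 2.57 and 1.66 on the log2 scale, and Ube2n, which builds lysine-63 chains with Ube2v2, rose by 1.58. Uba1, the main E1, was not called, at 0.09. Of 25 HECT ligases, 11 were called higher and 4 lower, with a median of 0.24. These shares, 44% and 16%, and the median are near those of all tested genes (38.8%, 11.6% and 0.19). Wwp1 rose by 1.57 and Ube3a by 1.13, while Herc2 fell by 0.88 and Huwe1 by 0.43. With total reads, the higher and lower counts were 25 and 15 for other RING genes, 15 and 6 for E1 and E2 enzymes and 6 and 12 for HECT ligases. Over all tested genes, 17.5% were then higher and 42.4% lower. Differences between these lists and the Ring finger members were not tested.

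Of the 82 member IDs, 16 did not pass the filter, and their highest FPKM in any library was 0.967. They included Rnf17, Rnf133, Rnf148, Rnf151, Rnf212 and Rnf212b, which are known from germ cells or testis, and the second ID of Rnf26. Rnf213 (mysterin), a large ligase with an ATPase domain, stood at 0.345 and 0.407 FPKM with Cpeb4, against 0.950 and 0.926 FPKM with IgG, on 135 to 461 reads per library. Both Cpeb4 values were below both IgG values. Where genes were chosen by a filter of 50 reads in place of FPKM, its log2 fold change was -0.49 (SE 0.10, adjusted p = 6.45e-06 by limma), which understates the difference because of the pseudocount. Rnf43, a ligase that removes Frizzled receptors from the cell surface, stood at 0.967 and 0.842 FPKM against 0.871 and 0.830 FPKM and was not called with that filter (log2 fold change 0.04, adjusted p = 0.774 by limma). RefSeq coordinates were matched for 74 of the 82 IDs. Of the 66 tested members, at least 36 overlap another RefSeq gene. Overlap could not be checked for tested members without matched coordinates, among them Rnf138, Rnf125, Rnf14, Rnf8 and Rnf219.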

How the data were processed

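RNA from anti-Cpeb4 and anti-IgG immunoprecipitates was amplified with a SMART-Seq v4 kit and made into Nextera XT libraries, per the labels' protocols. The submitters' processing notes list the build mm10, STAR 2.6.0c, HTSeq 0.6.1p2 and the authors' DESeq2 1.26.0. Per the file headers, the authors deposited FPKM per library, a mean level (a signal, reads divided by size factors), a test score, p-values and a log2 fold change with its error. The authors' FPKM steps, joined to that level, gave whole reads within 0.01 read for 100% of values. Reads carry no molecular identifiers, so depth (22486721 to 35037171 reads per library) bounds counting error only.

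Genes at 1 FPKM or more in 2 or more libraries were tested on log2(FPKM + 1), which understates changes of low genes, with limma 3.58.1 (R 4.3.3), a trended prior, antibody as effect and experiment as block, two-sided. The block left 1 residual degree of freedom, to which the prior added 14.6. The labels number experiments across antibodies, which pairs the libraries. Deviations of same-numbered libraries correlated at 0.00238, and 42 genes differed between experiments. Replicates differed beyond sampling noise, with chi-square over degrees of freedom at 20.2 (Cpeb4) and 4.28 (IgG). The code was tested on simulated data.

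Members, lists and tests were chosen with earlier results of these data known. Values in every library are given for the 10 called members with the largest positive and negative changes at a mean log2(FPKM + 1) of at least 2, the 5 with the highest mean FPKM, the called member with the smallest adjusted p in each role group, and those nearest the threshold. Other members shown by library were chosen after their values were seen. The 14 alternatives were 4 other scalings, a pseudocount of 0.1, no filter, a filter of 50 reads, limma-voom on recovered reads, no block, each library left out, and subtraction of a fitted loess trend on length and level (span 0.5). Gene length is that implied by FPKM and reads. Coordinates and overlaps are from RefSeq on GRCm38. No sequences are printed, and single values of some members are not reported here.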

Additional observations from a re-analysis of the deposited data

How the results depend on the processing

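Counts of calls moved with the scaling and with removal of the length and level trend. Where 39 members were called higher and 3 lower, total reads gave 17 and 19, the upper quartile 19 and 18, the trimmed mean of M-values 25 and 13, centring on the median 24 and 14, and removal of the length and level trend 21 and 17. No filter gave 0 lower members, and the 50-read filter and limma-voom gave 5 each. The members' median of 0.44 became -0.020 with total reads, 0.032 with the upper quartile, 0.17 with the trimmed mean, 0.12 with centring, 0.27 with no filter, 0.49 with limma-voom and 0.043 with the trend removed. Over all genes, 6106 higher and 1822 lower calls became 2759 and 6670 with total reads, 3088 and 5821 with the upper quartile, 4028 and 4024 with the trimmed mean, 3718 and 4715 with centring, 3915 and 875 with no filter, and 3729 and 4019 with the trend removed. Other RING genes (46 higher, 3 lower) gave 25 and 15 with total reads, 27 and 14 with the upper quartile, 8 lower with the trimmed mean, 10 lower with centring, 0 lower with no filter, and 24 and 14 with the trend removed. HECT ligases (11 higher, 4 lower) gave 6 and 12, 7 and 11, 7 lower, 9 lower, and 6 and 13 under total reads, upper quartile, trimmed mean, centring and trend removal. E1 and E2 enzymes (0 lower) gave 6, 5, 2, 2 and 5 lower in that order, and 1 lower with the 50-read filter, limma-voom or no block. Each other scaling multiplies all genes of a library by the same factor, and the shifts under the scalings follow from these factors. Why they differ from the authors' factors was not tested. With no filter or the 50-read filter, each member tested before kept its log2 fold change, so the members' median moved only through the members added. The cause of the remaining shifts was not tested.

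With each library left out, fits had no block, and a lone sample was assumed to vary like the other antibody's libraries. Members higher then ranged from 24 (without IgG of experiment 2) to 43, and members lower from 0 (without either IgG library) to 8 (without Cpeb4 of experiment 1), with a median of 0.41 to 0.49. All genes ranged from 3977 to 6534 higher and from 867 to 2497 lower, other RING genes from 37 to 48 and from 0 to 5, HECT ligases from 7 to 13 and from 3 to 5, and E1 and E2 enzymes from 18 to 22 and from 0 to 1.

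Experiments pair the libraries, and without the replicate block 39 members were higher and 3 lower, with Rnf150 gained and Rnf126 lost. For 21 named members, 294 values under the alternatives gave 234 on the same side of the threshold with the same direction, 24 weaker, 17 newly past it and 19 of changed sign, and 11 members kept their call and direction throughout. The changed signs were in Rnf14 (total reads -0.076, upper quartile -0.0066, trend removed -0.23), Rnf150 (total reads -0.015), Rnf126 (total reads -0.14, upper quartile -0.073), Rnf220 (total reads -0.39, upper quartile -0.32, trimmed mean -0.15, centring -0.21, trend removed -0.47), Rnf187 (total reads -0.40, upper quartile -0.33, trimmed mean -0.17, centring -0.23, without Cpeb4 of experiment 1 -0.046, trend removed -0.41) and Rnf10 (0.032 without Cpeb4 of experiment 1 and 0.11 without IgG of experiment 2, with -0.12 without IgG of experiment 1).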
